A study of Mus musculus with 12 samples.

Results

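H3K9me3 was compared across X-linked genes between female mouse epiblast stem cells (EpiSCs) that lack SmcHD1 and EpiSCs that have it. The members are the genes that carry a deposited H3K9me3 value in both libraries, 708 of the 952 X-linked genes listed, and no measured value entered the choice beyond its presence. The SmcHD1-deficient cells (MD1) were Smchd1 MD1/MD1, and the wild-type cells (WT) were Smchd1 +/+. Both also carried Xist deltaA/+, so the controls hold the mutated Xist allele too. Both came from embryonic day 6.5 of a C57BL6/J by (JF1 x C57BL6/J F1) cross, whose strain differences let reads be assigned to an allele. The wider set holds 12 samples, 8 ChIP libraries and 4 inputs, with embryonic fibroblasts (MEFs) of stage E13.5 in the same genotypes. H3K9me3 was precipitated with the mouse monoclonal antibody CMA318. Each group was 1 library, and how many cultures or embryos stood behind it was not stated in the labels. No test across samples was therefore possible for this comparison, and no difference below has a replicate check. The table covers the X only, so neither the Smchd1 genotype nor the EpiSC identity was checked against autosomal genes.

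SmcHD1 is a noncanonical member of the SMC protein family that gathers on the inactive X chromosome and takes part in keeping it silent and compact. MD1 is a loss-of-function allele of its gene, found in a mouse mutagenesis screen. H3K9me3 is the trimethylated lysine of histone H3 that marks constitutive heterochromatin and, on the inactive X, forms domains apart from the Polycomb mark H3K27me3. Xist is the RNA that starts X inactivation, and the deltaA allele lacks the repeat it needs for silencing, so that the other X is the one inactivated.

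Values are the authors' log2 enrichments, 1 per gene and library, and 0 is read here as no enrichment over input. What sets that level in each library is not given. Statements of levels over or under input, and of fold changes, therefore hold on the deposited scale only. Each value was a ratio of whole numbers times 1 constant per library, and the smallest such pairs served as a guide to how well each value was counted. Real counts may be multiples of them. Counts named below are those of the pairs, and an interval may be too wide. Over all genes with a value, the ChIP side of the pairs summed to 33117 in MD1 and 188886 in WT, against 181233 and 182193 on the input side. The ChIP number had a median of 13 per gene in MD1 and 70 in WT, and it was under 10 in 309 of 736 MD1 genes and 109 of 719 WT genes. Every 95% interval given for a gene is a counting interval from these pairs, which covers counting error only. In these bulk libraries, fewer cells with the mark and less of it per cell cannot be told apart. The ChIP sums cover X-linked genes only and hold the H3K9me3 signal itself, so they do not give the depth of a whole library. Library depth is not known, and its part in the result was not tested.

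H3K9me3 was lower in MD1 at 679 of the 708 genes, and most genes were left in a narrower range under input. MD1 levels still ran from −4.55 to 3.05, against −3.34 to 4.92 in WT. The MD1 library had a median of −1.27, with quartiles at −1.69 and −0.78. The WT library had a median of 2.02, with quartiles at 0.19 and 3.32. Of the MD1 genes 75.7% lay within 1 log2 unit of their median, and of the WT genes 31.9%. Values above input were found at 83 genes in MD1 and 555 in WT. The median change, MD1 minus WT, was −2.98, or 7.92-fold lower. Summing the pairs over genes before taking the ratio gave −0.92 in MD1 and 2.14 in WT.

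A decrease of at least 2-fold was found at 82.9% of genes and an increase of that size at 1.13%. The counting interval of the change lay below 0 at 79.1% of genes and above 0 at 0.282%. A decrease of at least 8-fold was found at 350 genes, or 49.4%. These shares are the background against which the counts in every gene group below are read. For centring, the median level of the genes outside the WT H3K9me3-rich set was subtracted from each library, −1.39 in MD1 and −0.21 in WT. Every change thus had −1.19 subtracted, and the median change became −1.80.

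Genes were then ordered by their WT level and split into 10 classes of nearly equal size, to see where the WT differences went. MD1 medians were −1.50 in class 1, with the lowest WT level, and −1.25 in class 8, while WT medians in the same classes were −1.21 and 3.31. Classes 9 and 10 stood somewhat higher in MD1, at −1.03 and −0.62, against 3.67 and 3.98 in WT. In class 1, 4 of 71 genes were at least 2-fold lower, and in class 10 all 71 were. The change shares its WT values with this ordering, so the MD1 level is the part to read. Across the 708 genes Pearson's r between MD1 and WT levels was 0.29 and Spearman's rho 0.26, as a description over genes that share 2 libraries.

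**Figure D1:**
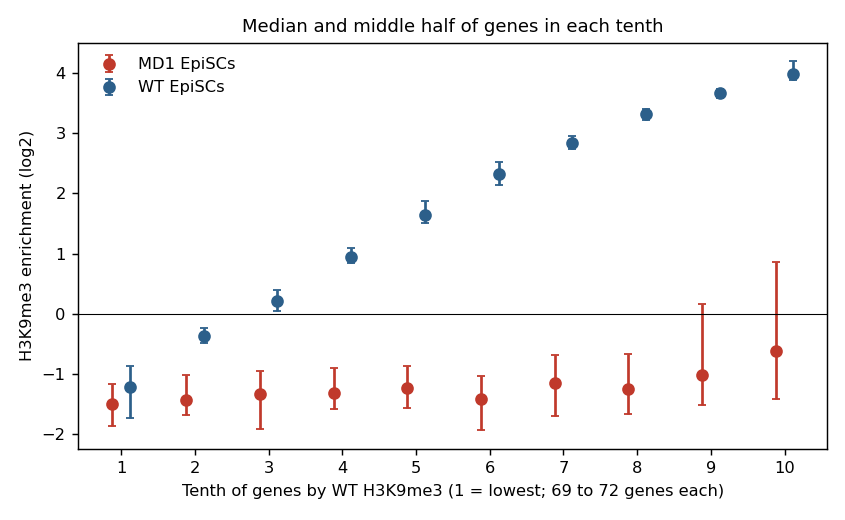
H3K9me3 enrichment (log2) in 10 classes of genes ordered by WT level, with MD1 in red and WT in blue; points are medians and bars run from the lower to the upper quartile. MD1 medians run between −1.50 and −0.62 while WT medians run between −1.21 and 3.98.

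The blocks of high H3K9me3 that WT cells carry along the X were mostly not seen in MD1. A gene with at least 2-fold enrichment over input is called H3K9me3-rich, which applied to 4.52% of genes in MD1 and 63.8% in WT. The longest unbroken stretch of rich genes held 5 genes in MD1 and 95 in WT. Of 20 stretches in MD1, 16 were single genes and 4 held at least 3. Of 43 in WT, 20 were single genes and 19 held at least 3. Each gene resembled its neighbour less in MD1, where the correlation of a gene with the next one measured was 0.30 over 707 neighbouring pairs, against 0.87 in WT. Among the 275 pairs with an MD1 ChIP number of at least 10 on both sides, it was 0.55 in MD1 and 0.90 in WT, so the figure for MD1 was higher among better counted genes. Leaving out the 46 pairs that overlap on the chromosome gave 0.30 and 0.86.

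**Figure D2:**
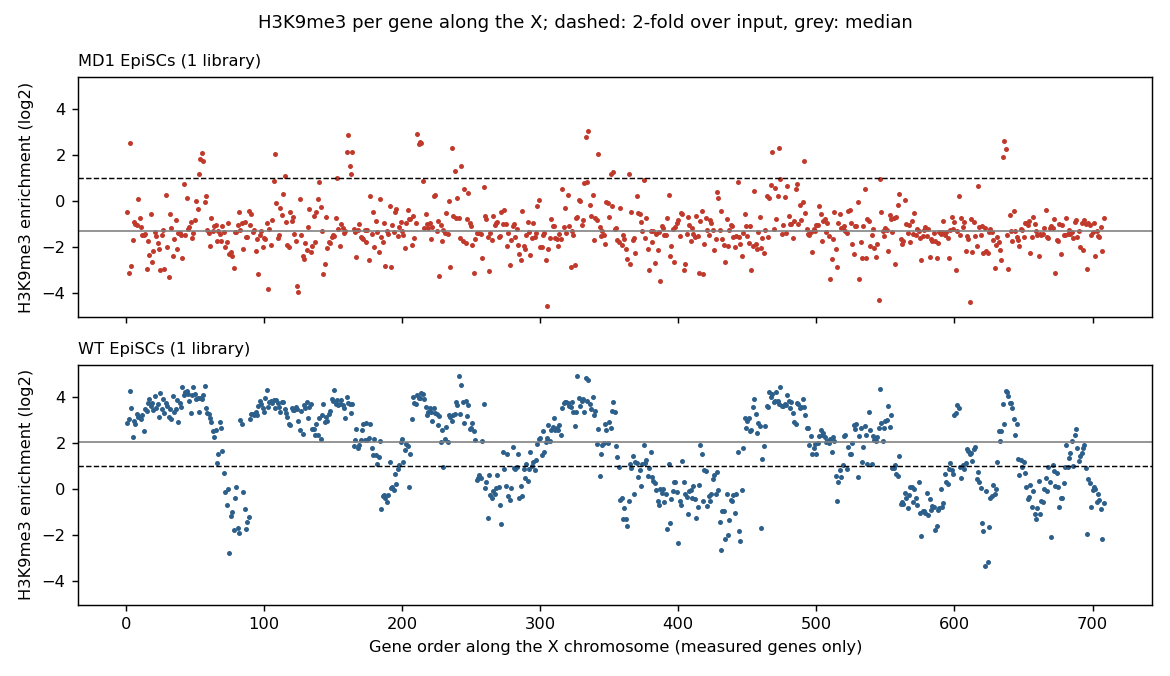
H3K9me3 enrichment (log2) of the 708 genes in their order along the X, MD1 above and WT below, each point a gene; the dashed line marks 2-fold over input and the grey line the library's median, −1.27 in MD1 and 2.02 in WT. The plateaus and valleys of the WT panel are mostly not seen in the MD1 panel, where 32 genes stand above the dashed line.

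Single genes at the edges of the WT blocks are given next, and the WT step differed between edges (coordinates in mm9). Chst7, which encodes a sulfotransferase of chondroitin sulfate, opens the longest WT block at X, 19636696. It had −1.02 in MD1 and 3.06 in WT, while the gene before it, 4930578C19Rik, had −0.42 in MD1 and −1.21 in WT. The WT step of more than 4 log2 units at this edge is thus missing in MD1. At the far end Igsf1 is followed by Firre, the gene of a long noncoding RNA bound near CTCF sites on the inactive X, with −1.56 in MD1 and −0.88 in WT. The 70-gene block ends with Gm14635, which had −1.06 in MD1 and 1.63 in WT. It gives way to Atp6ap2, an accessory subunit of the proton pump, with −1.34 in MD1 and 0.70 in WT. The WT step there was much smaller than at Chst7. The 53-gene block opens with P2ry10, which had −1.58 in MD1 and 1.32 in WT. Before it lies Lpar4, a receptor for lysophosphatidic acid, with −2.02 in MD1 and −1.68 in WT. Inside the 5 longest WT blocks the MD1 medians lay between −1.31 and −0.95, and the WT medians between 3.21 and 3.47.

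By position, the MD1 median varied less than the WT median. In intervals of 10 Mb with at least 13 genes, MD1 medians lay between −1.43, at 30 to 40 Mb, and −0.68, at 80 to 90 Mb. WT medians ran from −0.14, at 10 to 20 Mb, to 3.70, at 20 to 30 Mb. All 65 genes at 0 to 10 Mb, all 23 at 20 to 30 Mb and all 44 at 30 to 40 Mb were at least 2-fold lower. At 90 to 100 Mb 45 of 71 were, with medians of −1.40 in MD1 and −0.05 in WT, and at 10 to 20 Mb 18 of 27 were, with −1.34 in MD1 and −0.14 in WT.

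The decreases that stand farthest from 0 after counting error all lay at genes that were H3K9me3-rich in WT. The change subtracts the WT level, so a high WT level is largely built into this ordering. Ordered by the upper end of the counting interval, the leading 10 were Was, Rbm10, Gripap1, Thoc2, Syp, Ccdc22, Syn1, Upf3b, Lamp2 and Mtcp1. Was, which encodes the actin regulator mutated in Wiskott-Aldrich syndrome, had −2.44 in MD1 and 4.44 in WT, with an upper bound of −5.33 on the change. Gripap1 encodes an endosomal protein that binds a glutamate receptor scaffold, and lies at X, 7367119 to 7397693. It had −2.93 in MD1 and 3.30 in WT, a change of −6.23 (95% counting interval −7.29 to −5.18). Thoc2, a subunit of the THO complex in mRNA export (39148171 to 39265078), had −1.96 in MD1 on a ChIP number of 37, and 3.70 in WT on 1110. Its change of −5.65 (−6.17 to −5.14) is among the better counted ones.

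Syp and Syn1 encode the synaptic vesicle proteins synaptophysin and synapsin I. Syp (7215706 to 7230382) had −2.63 in MD1 and 3.73 in WT. Syn1 (20437637 to 20498044) had −1.63 in MD1 and 3.96 in WT, a change of −5.58 (−6.09 to −5.08) on an MD1 ChIP number of 42. Upf3b, a factor of nonsense-mediated mRNA decay, had −2.52 in MD1 and 3.65 in WT. Lamp2, a lysosomal membrane protein (35754534 to 35809637), had −1.56 in MD1 and 3.92 in WT, a change of −5.48 (−6.05 to −4.90). Ccdc22 had −2.34 in MD1 and 3.93 in WT, and Mtcp1 had −2.86 in MD1 and 3.54 in WT. The MD1 level of these 10 genes thus reached −3.15, at Rbm10, below the median of all genes, on MD1 ChIP numbers between 4 and 42. In all, the whole interval of the change lay beyond a 2-fold decrease at 424 genes, or 59.9%.

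**Figure D3:**
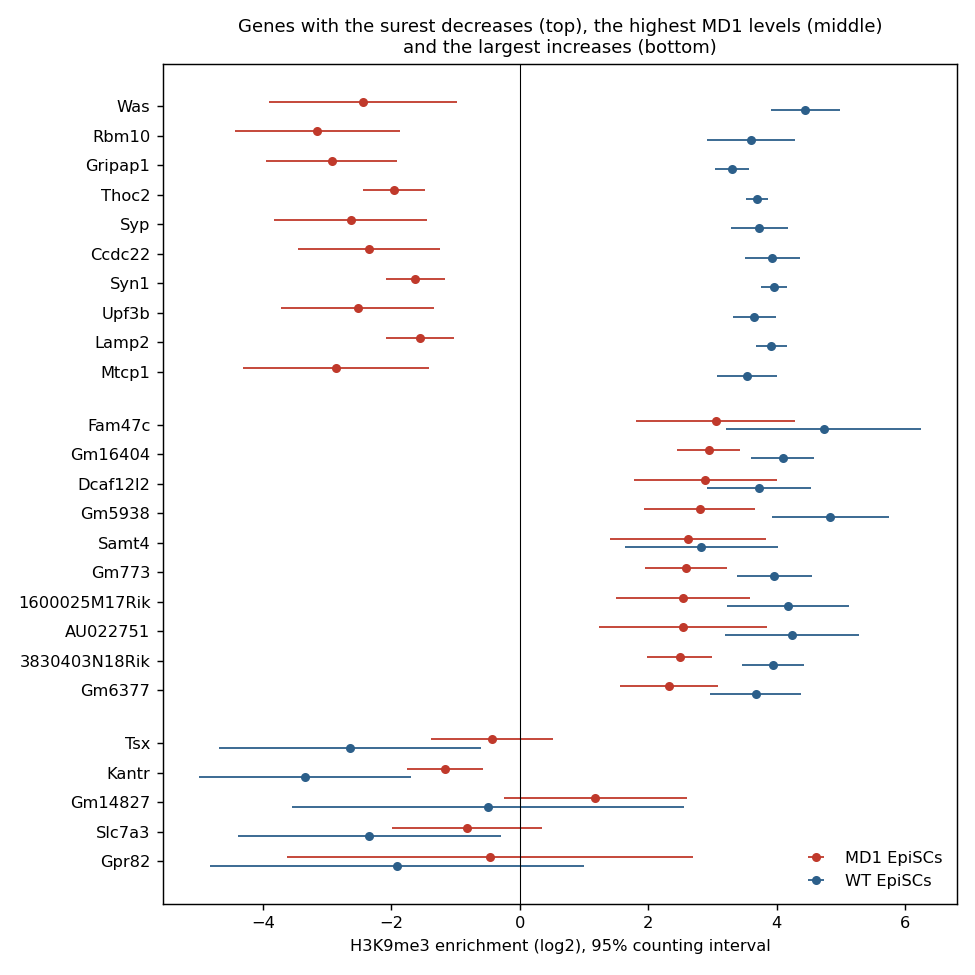
H3K9me3 enrichment (log2) with 95% counting intervals at 25 genes, MD1 in red and WT in blue. The 10 genes at the top are separated by more than 5 log2 units, the 10 in the middle stay above 2 in MD1, and the 5 at the bottom are higher in MD1 with wide intervals.

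A small set of genes kept H3K9me3 without SmcHD1. There were 32 H3K9me3-rich genes in MD1, of which 31 were also rich in WT, 28 had an MD1 ChIP number of at least 10, and 28 had an MD1 interval above input. Their levels had a median of 2.08 in MD1 and 3.75 in WT. Of the 32, 27 were still at least 2-fold lower, and 24 had an interval of the change below 0, so most kept part of the mark. With input numbers of at least 20 in both genotypes 14 genes were rich in MD1. After centring 107 were, but the 2-fold threshold then stands over the subtracted MD1 median and not over input.

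The highest MD1 level was at Fam47c (75983102 to 75984749), with 3.05 in MD1 and 4.73 in WT, a change of −1.68 (−3.64 to 0.29). Its MD1 value rests on 20 ChIP and 7 input counts. Gm16404 (52804773 to 52821634) is better counted, with 122 ChIP and 46 input counts in MD1. It had 2.94 in MD1 and 4.09 in WT, a change of −1.15 (−1.84 to −0.46). Dcaf12l2 had 2.89 in MD1 and 3.73 in WT, a change of −0.84 (−2.22 to 0.54). Gm5938 had 2.80 in MD1 and 4.84 in WT, and AU022751 had 2.54 in MD1 and 4.24 in WT. Samt4, a gene of a spermatid family, had 2.62 in MD1 and 2.82 in WT, a change whose interval of −1.90 to 1.50 includes 0. Gm6377 had 2.32 in MD1 and 3.67 in WT.

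The retained genes lay partly in clusters. Gm16404, 3830403N18Rik, Gm773 and 1600025M17Rik followed one another from 52804773 to 53573841, with 2.94, 2.49, 2.58 and 2.54 in MD1 and 4.09, 3.94, 3.96 and 4.18 in WT. Next to them Zfp449, a zinc finger gene, had 0.86 in MD1 and 4.11 in WT, and before them Xlr had −0.95 in MD1 and 3.67 in WT. A second cluster of 5 genes ran from Gm362 to 4930515L19Rik over 2.74 Mb, with a median of 2.12 in MD1 and 3.71 in WT. In it 4930515L19Rik (43620736 to 43682088) had 2.15 in MD1 on 316 ChIP counts and 3.71 in WT, a change of −1.57 (−1.89 to −1.24). Tenm1, the teneurin gene before the cluster, had −1.27 in MD1 and 3.10 in WT, so high WT signal was not retained there. Another was 4 Ssx genes from Ssxb2 to Ssxb5, and the last ran from 4930524N10Rik over Samt4 to Magea8.

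Magea8, one of the MAGE cancer-testis antigens (151420318 to 151430393), had 2.29 in MD1 and 4.23 in WT, a change of −1.95 (−2.53 to −1.37) on 138 ChIP counts in MD1. The next measured gene, 1700042B14Rik, had −1.44 in MD1 and 4.21 in WT. These neighbours had nearly the same WT level and differed by more than 3 log2 units in MD1. Mageb18, annotated over 480694 bases, had 1.27 in MD1 on 1293 ChIP counts and 3.77 in WT, a change of −2.50 (−2.63 to −2.36). Zfp300, a zinc finger gene, had 2.07 in MD1 and 3.53 in WT.

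The 32 genes rich in MD1, called retained here, were mostly short and had few CpGs in their promoters. Gm14827 is among them, though its WT level was −0.50. Of the 32, 22 (68.8%) were under 10 kb, against 31.8% of all 708 genes, and their median length was 4966.5 bases, against 20272. Promoter sequences of 300 bases from RefSeq (GRCm38.p6) were matched by symbol or synonym for 594 of the 708 genes, or 83.9%. The dinucleotide CG, which reads the same on both strands and is the target of DNA methylation in mammals, occurred at a median of 3 times in the promoters of 26 retained genes and 12 times in those of 568 other genes. Over 1046 X promoters in the table the median was 7, and 969 held at least 1. Of the 198 genes with the most promoter CpGs none was H3K9me3-rich in MD1, against 18 of the 198 with the fewest. MD1 medians in these classes were −1.46 and −1.04, and WT medians were 1.50 and 1.98. The retained genes were picked on their MD1 level after the values were known, so these shares are descriptions. They were not set against WT-rich genes alone, and the class with the highest WT level had a median length of 11612 bases.

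**Figure D4:**
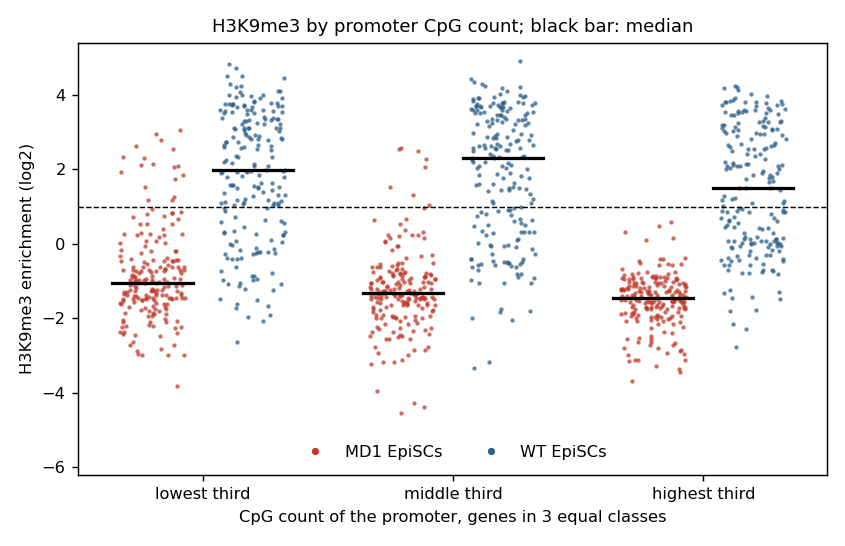
H3K9me3 enrichment (log2) of 594 genes in 3 classes of promoter CpG count, MD1 left in red and WT right in blue, with black bars for medians. The dashed line is 2-fold over input; 18, 8 and 0 MD1 genes lie above it from the lowest class to the highest.

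The promoters of the leading genes at both ends are printed to let their CpG content be compared, from 250 bases before to 50 after the start, with each CG in capitals. They are from Was (chrX:8090442-8090741, minus strand) and Rbm10 (chrX:20617253-20617552, plus strand), which lost the mark, and from Fam47c (chrX:78737513-78737812, plus strand) and Gm16404 (chrX:55551346-55551645, plus strand), which kept part of it, all in GRCm38.p6. They hold 5, 22, 1 and 5 CGs in that order, so the genes that lost the mark are not alike in this.
Was: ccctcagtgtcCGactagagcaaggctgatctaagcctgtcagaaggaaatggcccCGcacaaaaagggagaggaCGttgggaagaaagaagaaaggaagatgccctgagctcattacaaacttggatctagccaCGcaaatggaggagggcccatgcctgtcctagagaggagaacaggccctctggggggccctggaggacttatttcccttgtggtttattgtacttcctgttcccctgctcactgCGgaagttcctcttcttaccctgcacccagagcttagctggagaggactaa
Rbm10: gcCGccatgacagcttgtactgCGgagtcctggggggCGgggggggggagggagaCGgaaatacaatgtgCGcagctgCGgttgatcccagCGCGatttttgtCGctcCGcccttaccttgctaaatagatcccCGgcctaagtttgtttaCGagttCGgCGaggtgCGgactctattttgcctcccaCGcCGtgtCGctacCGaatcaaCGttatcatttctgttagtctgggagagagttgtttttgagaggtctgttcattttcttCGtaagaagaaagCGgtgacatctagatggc
Fam47c: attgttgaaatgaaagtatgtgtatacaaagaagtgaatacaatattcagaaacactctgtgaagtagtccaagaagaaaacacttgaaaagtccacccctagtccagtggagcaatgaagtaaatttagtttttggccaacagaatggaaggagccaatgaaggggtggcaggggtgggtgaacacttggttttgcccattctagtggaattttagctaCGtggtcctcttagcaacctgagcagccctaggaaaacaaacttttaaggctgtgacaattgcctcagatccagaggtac
Gm16404: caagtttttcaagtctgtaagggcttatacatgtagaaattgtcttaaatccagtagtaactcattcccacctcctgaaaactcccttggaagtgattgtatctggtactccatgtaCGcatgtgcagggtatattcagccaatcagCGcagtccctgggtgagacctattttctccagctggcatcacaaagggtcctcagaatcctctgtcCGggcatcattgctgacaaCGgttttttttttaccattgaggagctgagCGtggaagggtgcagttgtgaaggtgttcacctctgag

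The mark changed least at genes that had little of it in WT, which follows in part from subtracting the WT level. The X inactivation centre was such a region. Of 11 genes of the centre measured, 2 were at least 2-fold lower and 1 was higher, against the 82.9% and 1.13% of all genes, and 0 were H3K9me3-rich in either genotype. Their medians were −1.54 in MD1 and −0.97 in WT, and the median change of −0.48 became 0.70 after centring. Xist had −1.90 in MD1 and −0.97 in WT (change −0.94, interval −1.86 to −0.01). Its antisense partner Tsix had −1.63 in MD1 and −0.93 in WT, and since the genes overlap, reads from the shared stretch count for both unless the authors separated them. Jpx, an RNA that activates Xist, had −2.63 in MD1 and −2.15 in WT. Ftx, another noncoding RNA gene of the centre, had −1.95 in MD1 and −1.99 in WT.

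The 5 largest increases were at Tsx, Kantr, Gm14827, Slc7a3 and Gpr82, and they led to levels under input except at Gm14827. Tsx, a testis-expressed gene beside Xist, had −0.43 in MD1 and −2.64 in WT, a change of 2.21 (−0.04 to 4.46) on 2 WT ChIP counts. Kantr, a noncoding RNA gene beside Kdm5c (148729367 to 148762036), had −1.16 in MD1 and −3.34 in WT, a change of 2.18 (0.42 to 3.93) on 3 WT ChIP counts. Of the 5, only Kantr had an interval above 0. Slc7a3, an arginine transporter, had −0.83 in MD1 and −2.34 in WT (interval of the change −0.84 to 3.87). Gm14827 had 1.17 in MD1 and −0.50 in WT, and Gpr82 had −0.46 in MD1 and −1.91 in WT, both on a WT ChIP count of 1.

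Genes that escape X inactivation mostly had low H3K9me3 already in WT. Of 9 measured, 3 were at least 2-fold lower and 0 were higher, against 82.9% and 1.13% of all genes. Their medians were −1.57 in MD1 and −1.43 in WT, and the median change of −0.27 became 0.91 after centring. Kdm6a, the H3K27 demethylase, had −1.55 in MD1 and −1.43 in WT, a change of −0.12 (−0.57 to 0.34) on 100 ChIP counts in MD1. Kdm5c, the H3K4 demethylase, had −2.26 in MD1 and −1.81 in WT. Mid1, a ubiquitin ligase gene at the pseudoautosomal boundary, had −1.13 in MD1 and −0.86 in WT, a change of −0.27 (−0.51 to −0.03). The 3 lower genes were Ddx3x, Utp14a and Car5b. Ddx3x, an RNA helicase gene, had −2.88 in MD1 and −1.80 in WT, on ChIP numbers of 3 and 4. The interval of its change, −3.30 to 1.14, includes 0. Utp14a, a factor of ribosomal RNA processing, had −1.57 in MD1 and 2.58 in WT (interval −5.02 to −3.30). Car5b, a mitochondrial carbonic anhydrase, had −1.70 in MD1 and 0.10 in WT (−2.39 to −1.21). Around Kdm5c the genes Iqsec2, Gpr173 and 3010001F23Rik, chosen after their values were seen, changed by 0.39, 0.95 and 0.32, with intervals that include 0.

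Of 9 genes listed as subject to X inactivation, 8 (88.9%) were at least 2-fold lower, a share near the 82.9% of all genes, with medians of −1.56 in MD1 and 2.02 in WT. Atrx, a chromatin remodeller that takes part in heterochromatin (interval −4.05 to −3.38), had −1.05 in MD1 and 2.66 in WT. Fmr1, the gene silenced in fragile X syndrome, had −0.76 in MD1 and 3.17 in WT. Hprt, a purine salvage enzyme, had −0.88 in MD1 and 2.02 in WT, a change of −2.90 (−3.46 to −2.34). The exception was Rlim, a ubiquitin ligase that promotes Xist expression, with −1.03 in MD1 and −0.47 in WT (interval of the change −1.89 to 0.76).

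Gene families of the germline differed in how much they kept. The Rhox homeobox cluster, expressed in reproductive tissues and placenta, was at least 2-fold lower at all 10 measured members, against 82.9% of all genes. All 10 were H3K9me3-rich in WT, and such decreases were common at high WT levels, at 68 of 70 genes in WT class 7 and all 71 in class 8. The count is thus not particular to Rhox genes. The medians of the cluster were −1.53 in MD1 and 2.86 in WT. Only 10 of 30 listed Rhox genes had both values, and the interval lay below 0 at 9. The MD1 values rest on few ChIP counts, such as 1 at Rhox6 and 4 at Rhox1, against 15 at Rhox13. Rhox1 had −2.19 in MD1 and 3.70 in WT, and Rhox13 had −0.67 in MD1 and 3.11 in WT, a change of −3.78 (−4.67 to −2.88). Rhox8 had the highest MD1 level of the cluster, 0.12, against 2.33 in WT. The Xlr, Ssx and Samt genes, multicopy families of the germline, were at least 2-fold lower at 8 of 9, yet 5 of 9 were still H3K9me3-rich in MD1, against 4.52% of all genes. Their medians were 1.17 in MD1 and 3.90 in WT. Ssx9 had 2.10 in MD1 and 3.92 in WT, while Ssxb10 had −0.01 in MD1 and 3.90 in WT and Ssxb9 −0.31 in MD1 and 3.94 in WT. Members of such families have near-identical copies, so reads may be split between them, and only 9 of 34 listed genes had both values.

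Of the 8 Mage genes measured, 7 (87.5%) were at least 2-fold lower, a share near the 82.9% of all genes. Magea8 and Mageb18 were rich in MD1, as were 4.52% of all genes. Maged1 and Maged2, which are expressed in many tissues, had −2.71 and −2.16 in MD1, against 1.09 and 1.14 in WT, on MD1 ChIP counts of 2. Mageb16 had 0.28 in MD1 and 3.98 in WT, a change of −3.70 (−4.33 to −3.07). Among 14 other germline genes 12 (85.7%) were at least 2-fold lower, also near the share of all genes, with medians of −0.38 in MD1 and 2.39 in WT. Akap4 and Akap14, anchoring proteins of protein kinase A in sperm, had −0.71 and −2.11 in MD1, against 3.11 and 3.79 in WT. Tsga8 had 2.05 in MD1 and 2.62 in WT, and Pet2 had 1.20 in MD1 and 2.67 in WT. Tex11, a meiotic recombination gene, had −0.92 in MD1 and −0.12 in WT, a change of −0.80 (−1.13 to −0.46). The median change of this list, −1.84, became −0.65 after centring.

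**Figure D5:**
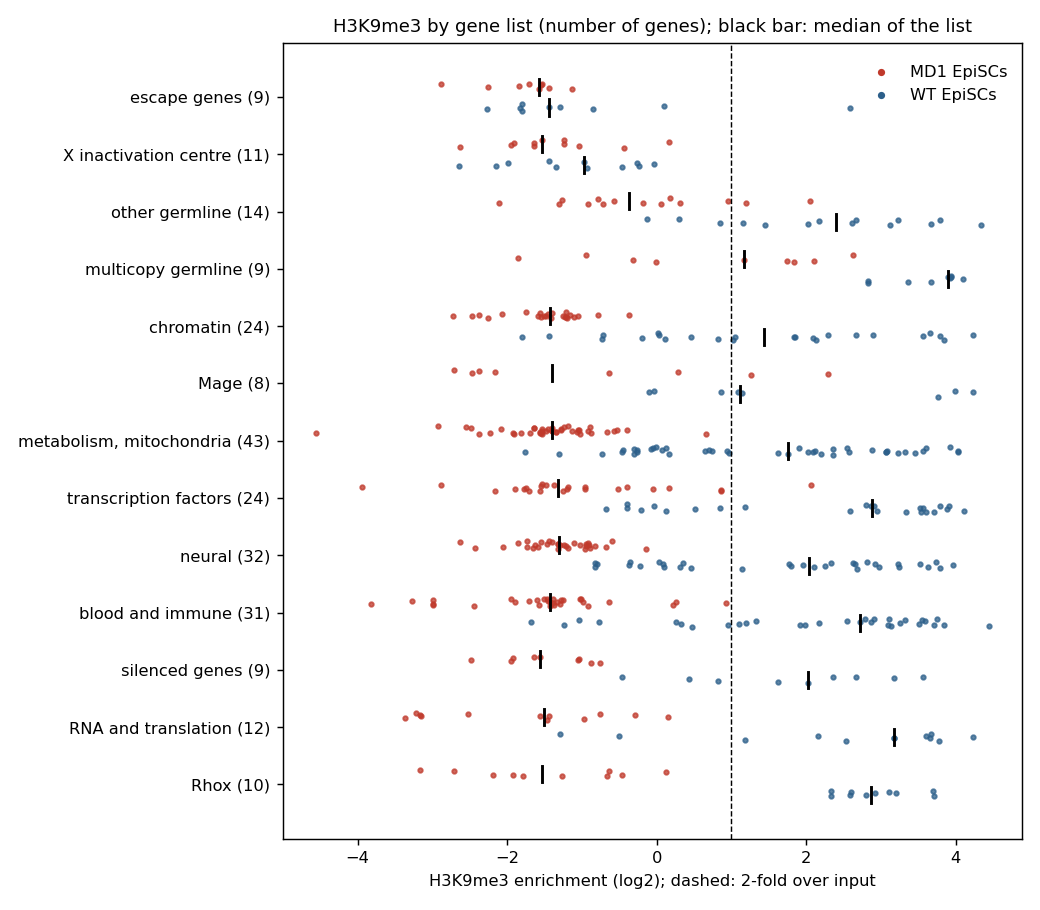
H3K9me3 enrichment (log2) of the genes in 13 lists, MD1 above in red and WT below in blue for each list, with black bars for medians and the number of genes in brackets. MD1 medians lie between −1.57 and −1.31 in 11 of the lists, and at −0.38 and 1.17 in the 2 germline lists.

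The functional groups had similar MD1 medians and different WT medians. Their shares of genes at least 2-fold lower, from 83.3% to 91.7%, were near the 82.9% of all genes. Chromatin regulators were at least 2-fold lower at 20 of 24, with medians of −1.43 in MD1 and 1.44 in WT. Suv39h1, which encodes an H3K9 methyltransferase, had −1.48 in MD1 and 3.56 in WT, a change of −5.05 (−6.08 to −4.01). Hdac6, a deacetylase of tubulin, had −2.07 in MD1 and 3.85 in WT. The cohesin subunit gene Stag2 had −1.16 in MD1 and 3.65 in WT (interval −5.32 to −4.31), while Smc1a, of the same complex, had −1.46 in MD1 and 0.03 in WT, and Hdac8, the deacetylase of cohesin, had −1.26 in MD1 and −0.73 in WT. These 3 genes had close MD1 levels and WT levels spread over more than 4 log2 units. Bcor, a corepressor of the variant Polycomb complex, had −1.41 in MD1 and 2.89 in WT, and Med14 and Med12, of Mediator, had −1.75 and −2.72 in MD1, against −0.71 and −0.19 in WT.

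Transcription factor genes were at least 2-fold lower at 22 of 24, with medians of −1.32 in MD1 and 2.88 in WT. Foxp3, of regulatory T cells, had −1.71 in MD1 and 3.71 in WT, a change of −5.43 (−6.23 to −4.62). Elk1, a target of MAP kinase, had −1.20 in MD1 and 3.79 in WT, and Elf4 had −1.77 in MD1 and 2.87 in WT. Zfp182 kept more, with 0.87 in MD1 on 122 ChIP counts and 3.88 in WT. Nr0b1 (Dax1), a nuclear receptor of the pluripotency network, had −0.05 in MD1 and 2.58 in WT. Foxo4 and the homeobox gene Cdx4 had changes of 0.17 and 0.19, with intervals that include 0.

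Genes of RNA processing and translation were at least 2-fold lower at 11 of 12, with medians of −1.51 in MD1 and 3.17 in WT. Rbm3, the cold-inducible RNA-binding protein, had 0.15 in MD1 and 4.23 in WT, and Dkc1, which modifies RNA and stabilises telomerase, had −0.29 in MD1 and 3.77 in WT. The exception was Eif2s3x, an initiation factor subunit that escapes inactivation, with −1.44 in MD1 and −1.29 in WT. Blood and immune genes were at least 2-fold lower at 26 of 31, with medians of −1.43 in MD1 and 2.72 in WT. Il13ra1, a chain of the interleukin-13 receptor, had −1.90 in MD1 and 3.14 in WT, and Xiap, an inhibitor of caspases, had −0.98 in MD1 and 3.85 in WT. F8, coagulation factor VIII, had 0.26 in MD1 on 364 ChIP counts and 3.75 in WT. Vsig4, a complement receptor, had 0.92 in MD1 and 1.92 in WT, a change of −0.99 (−1.41 to −0.57), just under 2-fold.

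Neural genes were at least 2-fold lower at 27 of 32, with medians of −1.31 in MD1 and 2.03 in WT. Long genes in this list are well counted. Dmd, the dystrophin gene, had −0.82 in MD1 on 1964 ChIP counts and 1.96 in WT, a change of −2.79 (−2.87 to −2.70). Il1rapl1 and Il1rapl2, synaptic adhesion proteins, had −0.68 and −0.60 in MD1, against 2.92 and 2.67 in WT. Pcdh11x, a protocadherin, had −0.14 in MD1 and 3.52 in WT. At the other end Pak3, a kinase of dendritic spines, had −1.33 in MD1 and −0.82 in WT (interval −0.80 to −0.22). The MD1 levels of these well-counted genes were thus not all equal, and their intervals do not overlap between Pak3 and Pcdh11x.

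Metabolic and mitochondrial genes were at least 2-fold lower at 36 of 43, with medians of −1.40 in MD1 and 1.76 in WT. Atp7a, a copper transporter, had −1.05 in MD1 and 2.54 in WT, and Otc, of the urea cycle, had −1.04 in MD1 and 2.57 in WT. Sms, spermine synthase, had −1.29 in MD1 and 2.36 in WT. Ogt, which adds O-GlcNAc to proteins, had −1.56 in MD1 and −0.45 in WT, and Phka2, a subunit of phosphorylase kinase, had −0.66 in MD1 and −0.08 in WT (interval −1.03 to −0.14).

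H3K27me3, the Polycomb mark, was measured in other libraries that share the inputs. Its level at the 32 genes had a median of 2.96 in MD1 and −1.46 in WT, beside 4.09 in MD1 and 4.19 in WT over all 708 genes. At Gm362 it was 3.26 in MD1 and −3.43 in WT, and at Ssxb5 it was 4.34 in MD1 and −3.43 in WT. Gm16404, in contrast, had −0.49 in MD1 and −2.71 in WT, and Samt4 −2.22 in MD1 and −2.07 in WT, so the genes that kept H3K9me3 were not alike in H3K27me3. Higher H3K27me3 in MD1 from a low WT level was also found at H3K9me3-rich WT genes that were not retained, chosen here after their values were seen. Porcn, which modifies Wnt proteins, had 4.13 in MD1 and −1.23 in WT, and Ftsj1, a tRNA methyltransferase gene, had 3.65 in MD1 and −1.51 in WT. The pattern is therefore not particular to the retained genes.

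In fibroblasts, whose libraries are separate from those of EpiSCs, the same genes had a median H3K9me3 change of −1.02, against −2.98 in EpiSCs. Whether the cell types differ was not tested, since each holds 1 library per genotype. Of the 32 genes rich in MD1 EpiSCs, 13 were also rich in MD1 MEFs, where 18 of the members were rich in all. Between the MD1 libraries of the cell types, Pearson's r of the gene levels was 0.53 and Spearman's rho 0.51 over 702 genes, as a description. With genes split in 3 by WT MEF level, a value outside the comparison, the highest class had medians of −0.94 in MD1 EpiSCs and 3.52 in WT EpiSCs, and the lowest class −1.44 in MD1 and 0.26 in WT. In these classes 94.0% and 67.8% were at least 2-fold lower in MD1 EpiSCs.

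Of the 952 genes 244 had no value in at least 1 of the libraries and were left out. Among them 28 had a value in MD1 only, 11 in WT only and 205 in neither. Their median length was 2933 bases, so short genes are under-represented among the members.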

How the data were processed

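H3K9me3 and H3K27me3 ChIP-seq was done in MD1 and WT EpiSCs and MEFs, 1 library per mark, genotype and cell type, with an input for each of the 4 kinds of cells. The submitters' processing notes name mm9 as the build, with BWA, SAMtools and cutadapt as tools, and no versions. How reads were counted, from which allele, and with what minimum or pseudocount was not stated. The values deposited by the authors are log2 enrichments, 1 per X-linked gene and ChIP library. Input was taken as the denominator. What sets the constant of each library is not given. The constants recovered for H3K9me3 in EpiSCs were 2.90 in MD1 and 4.24 in WT, and each change includes their ratio.

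Changes are the MD1 minus the WT log2 value. Smallest whole-number pairs and 1 constant per library were recovered by continued fractions (relative tolerance 2e-13, denominator at most 1000000). They reproduced 100% of values in each library, which does not show that the pairs are the real counts. The procedure was tested on simulated data, with an outcome that is not given here. Real counts may be multiples of the pairs, and intervals (normal approximation on the log scale) are approximate at few counts. Overlapping genes can share reads. Changed and H3K9me3-rich genes were set at 2-fold. Members, lists and rules were chosen with earlier results of these data known. The text names the 10 genes whose interval lies farthest below 0, the 10 with the highest MD1 level on at least 10 ChIP counts, the 5 largest increases, block edges and members of 13 gene lists. Others were named after their values were seen. No p-value was computed, because with 1 library a side there are no residual degrees of freedom. Deposited starts count from 0 and are printed counting from 1. Alternatives were a pseudocount of 0.1, omission of the lowest 10% of genes, centring, minimum input or ChIP counts, genes with all 8 values, and 3-fold thresholds. Python 3.11.15, numpy 2.4.6, pandas 2.3.3, scipy 1.17.1 and matplotlib 3.10.9 were used. Results for some genes are not reported here.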

Additional observations from a re-analysis of the deposited data

Results flagged for a closer look

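At Zfx, a transcription factor gene, the H3K9me3 change had opposite signs in the cell types, with counting intervals that exclude 0 in both. Zfx changed by −1.49 in EpiSCs (−1.90 in MD1, −0.40 in WT), and by 0.74 in MEFs. The difference between cell types was not tested, since each has 1 library per genotype.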

How the results depend on the processing

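The median change of −2.98 kept its direction in every alternative run. It was −2.69 with a pseudocount of 0.1, −3.24 without the lowest 10% of genes, and −1.80 after centring. Among the 421 genes with an MD1 ChIP number of at least 10, an alternative chosen after seeing the data, it was −2.57. The MD1 ChIP number is part of the MD1 level, so this minimum favours genes with more MD1 signal, and a smaller decrease is partly built in. Among those 421 genes 340 were at least 2-fold lower and 261 were rich in WT, fewer because fewer genes were counted. The 8 genes at least 2-fold higher became 5 with the pseudocount, 2 without the lowest 10%, 38 after centring, 3 with input numbers of at least 20, 3 at 3-fold and 2 with the MD1 ChIP minimum. The share of WT-rich genes under the threshold in MD1 was 93.1% as deposited, 79.8% after centring, 95.9% with the input minimum and 89.3% with the ChIP minimum. Genes rich in MD1 numbered 107 after centring and 14 with the input minimum. Centring moves the threshold away from input in both libraries, and the WT-rich set then held 481 genes, against 452 as deposited. List medians reversed for escape genes (0.91 after centring) and for the X inactivation centre (0.70 after centring, 0.034 with the ChIP minimum). Centring sets the median change of genes outside the WT-rich set near 0 by construction, and the causes of the other shifts were not tested. Lower calls made up 98.7% of 2-fold calls as deposited and 92.2% after centring. No paired analysis was possible because the labels give no replicate numbers and each group holds 1 library. With 1 library a side and a median MD1 ChIP number of 13, counting error limits the single-gene changes, and no spread between cultures was measured.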
